A study of Mus musculus with 15 samples.

Results

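Tumours of LLC1-sgLkb1 cells under radiation with an immune checkpoint inhibitor (KD RI, 3 samples) were compared with tumours of unmodified LLC1 cells under the same treatment (WT RI, 3 samples). These 6 are chosen by their labels alone, from 15 samples in all. Every gene of the deposited count table entered, 53465 genes, of which 16617 had enough counts to be tested. LLC1 is a mouse Lewis lung carcinoma line. The label sgLkb1 names a guide against Lkb1, the gene Stk11, and the genotype is given as a knockdown; the sources used here do not say whether the line is 1 clone or a pool, nor do they give the mouse strain, age and sex, the inhibitor, the radiation dose or the time of harvest. What both groups share is the parental line and the combined treatment, so no untreated tumour stands behind any value below. Where the treatments are compared, LLC1-sgLkb1 and LLC1 tumours given the checkpoint inhibitor alone (KD ICI and WT ICI, 3 samples each) are used as well; 3 irradiated knockdown samples without the inhibitor are not used here.

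LKB1 is a serine/threonine kinase and tumour suppressor that, with its partners STRAD and MO25, activates AMPK and the AMPK-related kinases, among them the salt-inducible kinases that hold back CREB coactivators of the CRTC family. In lung carcinoma its loss is known for tumours with few T cells. Interferons bind receptors on the cell surface and switch on genes for antigen presentation, immune GTPases and the chemokines that draw T cells.

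The 6 RI libraries held between 18021123 and 21566357 counts. Their first principal component (65.2% of the variance of log2 CPM) put the 3 KD RI libraries between -62.5 and -48.1 and the 3 WT RI libraries between 50.2 and 59.5. WT RI 3 stood apart on the second (15.7%) at -52.1, and skeletal muscle genes summed to 8.48, 103 and 102 CPM in KD RI, against 5.03, 3.37 and 951 CPM in WT RI. The sample descriptions give KD RI 1 and KD RI 3 a common name, SG793, which KD RI 2 lacks. Transcripts of the X-inactivation RNA Xist stood at 0.388, 43.9 and 0.208 CPM in KD RI, against 85.9, 99.5 and 66.7 CPM in WT RI, and those of the Y-linked helicase Ddx3y at 3.55, 0 and 2.34 CPM in KD RI, against 0.397, 0.311 and 0 CPM in WT RI. KD RI 1 and KD RI 3 thus had low Xist and more Y-linked RNA, whereas KD RI 2 and the 3 WT RI libraries had the opposite. The part of this difference in any result was not tested. Leaving out the SG793 libraries leaves KD RI 2 as the only KD RI library, with its spread taken from the other groups. Values of that fit are given beside some of the genes and lists whose calls it changes, not beside all. Calls also changed in the CREB and CRTC, nucleic acid sensing, Wnt and AMPK-related kinase lists, where its values are not given. Among the ICI libraries KD ICI 3 is also described as SG793, and KD ICI 1 and KD ICI 2 share the identifier H80, with the endings JIAN and TUI. JIAN also ends the names of KD RI 2, the 3 WT RI libraries and WT ICI 2, and TUI those of WT ICI 1 and WT ICI 3. What these words mean is not given, so KD ICI 1 and KD ICI 2 may be 1 source, and TUI is found under ICI only, in 3 of 6 libraries. The part of these names in any result was not tested. Values below are CPM, counts scaled to a common library total by the TMM method and listed for libraries 1, 2 and 3 of each group. Fold changes are KD RI over WT RI on the log2 scale with the standard error of the fit, and a gene is called at a Benjamini-Hochberg adjusted p under 0.05 over all genes tested (edgeR quasi-likelihood test, two-sided, n = 3 and 3). Nothing in the labels says that the samples came from separate animals, so these p-values speak for the spread among the samples and may cover technical spread only.

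Stk11 (chr10:80115803-80130682, GRCm38), the target of the guide, stood at 139, 111 and 127 CPM in KD RI, against 140.2, 140.0 and 147 CPM in WT RI. The highest KD RI library lay just under the lowest WT RI libraries, and the difference did not pass the test (log2 fold change -0.18 ± 0.12, adjusted p = 0.304). Reads from an edited gene can still be counted, so this level does not measure the protein.

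The comparison called 3528 genes, 21.2% of those tested. In KD RI 1525 were higher (9.18%) and 2003 were lower (12.1%). Over 2-fold there were 581 higher (3.5%) and 1156 lower (6.96%), and over 4-fold 296 higher and 548 lower. The median log2 fold change of all genes tested was 0.02. The number higher became 960 without KD RI 2, 969 without WT RI 1, 915 without WT RI 2 and 2393 without KD ICI 3, where 17133 genes were tested; the number lower lay between 1430 and 2723 when each of the 12 libraries was left out in turn.

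Interferon-induced genes were lower in KD RI almost throughout: 28 of 30 tested were called lower and 0 higher, with a median log2 fold change of -2.53. Their summed level was 332, 288 and 303 CPM in KD RI, against 1909.8, 2028 and 1739 CPM in WT RI, so the groups stood far apart. The 2 not called were Oas1a and Oasl1. Leaving out each library in turn gave 28 or 29 called lower, and 28 were called lower without the SG793 libraries. Gbp7, a guanylate-binding GTPase, stood at 4.99, 3.48 and 3.998 CPM in KD RI, against 90.9, 105 and 92.4 CPM in WT RI (log2 fold change -4.53 ± 0.20, adjusted p = 6.41e-08). Igtp and Irgm1 are immunity-related GTPases that act on vacuoles of intracellular pathogens. Igtp stood at 9.81, 8.06 and 11.3 CPM in KD RI, against 115, 110.3 and 108 CPM in WT RI (log2 fold change -3.51 ± 0.15, adjusted p = 6.26e-08), and Irgm1 at 15.4, 13.7 and 13.4 CPM in KD RI, against 116, 114 and 107 CPM in WT RI (log2 fold change -2.99 ± 0.13, adjusted p = 6.41e-08). Within each group these 2 genes varied little between libraries.

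The 10 largest falls included Cxcl9 of this list and 3 relatives of its GTPases, Gbp2b, Tgtp1 and Gbp8. Gbp2b had 0 counts in all 3 KD RI libraries, against 6.14, 7.73 and 6.14 CPM in WT RI, which is at least 131-fold lower when 3 counts are set as the floor over the KD RI group (adjusted p = 3.27e-04). Tgtp1, a GTPase of the same family as Igtp, stood at 0.111, 0.0520 and 0.104 CPM in KD RI, against 16.02, 15.2 and 12.8 CPM in WT RI (log2 fold change -7.28 ± 0.56, adjusted p = 4.73e-06). Tgtp1 has a close copy, Tgtp2, and how shared reads were counted is not given. Cxcl9, an interferon-gamma induced chemokine for T cells, stood at 0.720, 0.884 and 0.987 CPM in KD RI, against 111, 124 and 57.1 CPM in WT RI (log2 fold change -6.80 ± 0.83, adjusted p = 3.67e-04). WT RI 3 was the lowest of the WT RI libraries for Cxcl9 and still far above KD RI. Gbp8, Serpina3f and Ubd, the ubiquitin-like protein FAT10, had log2 fold changes of -6.97, -6.31 and -6.21, each at 0.21 CPM or less in every KD RI library.

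The promoters of 3 of these genes are shown because each holds the letters GAAANNGAA, the core of the interferon-stimulated response element, within 250 bases before the RefSeq start (GRCm38.p6, gene strand, 5′ to 3′; capitals mark the match, which in Gbp2 lies on the opposite strand). Cxcl9 is read from chr5:92328080-92328329 on the minus strand, Tgtp1 from chr11:48992247-48992496 on the minus strand and Gbp2 from chr3:142620413-142620662 on the plus strand.
Cxcl9: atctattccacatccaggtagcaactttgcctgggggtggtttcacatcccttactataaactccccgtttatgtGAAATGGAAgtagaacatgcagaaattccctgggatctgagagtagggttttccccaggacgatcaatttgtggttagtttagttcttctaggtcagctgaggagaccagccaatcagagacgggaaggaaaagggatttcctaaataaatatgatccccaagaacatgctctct
Tgtp1: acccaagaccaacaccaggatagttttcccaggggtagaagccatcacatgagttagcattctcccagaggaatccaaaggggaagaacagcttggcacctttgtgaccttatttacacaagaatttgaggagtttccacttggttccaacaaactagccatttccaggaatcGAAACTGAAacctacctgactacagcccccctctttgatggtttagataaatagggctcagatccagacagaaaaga
Gbp2: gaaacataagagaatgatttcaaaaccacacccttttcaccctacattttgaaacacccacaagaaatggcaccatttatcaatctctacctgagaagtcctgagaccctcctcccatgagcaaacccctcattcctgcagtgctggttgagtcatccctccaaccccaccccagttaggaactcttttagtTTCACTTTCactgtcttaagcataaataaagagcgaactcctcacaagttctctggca
Of the 30 interferon list genes, 22 had a RefSeq promoter and 16 of these (72.7%) held GAAANNGAA on either strand. Of the 11266 tested genes with a promoter 863 held it (7.66%), of the 1461 called lower 197 (13.5%) and of the 1119 called higher 66 (5.90%). The interferon list was assembled from known interferon targets, and a match is a description of letters, not of binding.

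**Figure D1:**
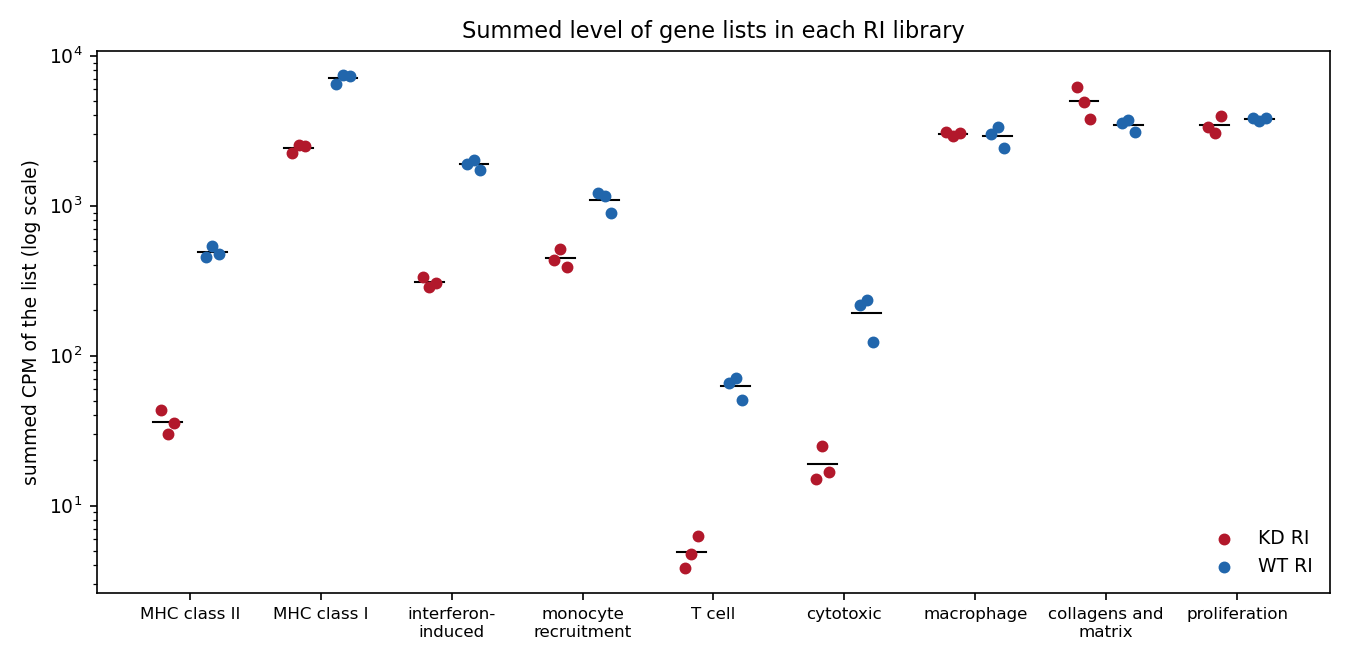
Summed CPM (log axis) of 9 gene lists in each RI library, KD RI in red at the left and WT RI in blue at the right of each pair; points are libraries and bars are group means (n = 3 each). The KD RI sums of MHC class II genes lie between 29.9 and 43.1 CPM and the WT RI sums between 453 and 537 CPM, while the macrophage sums of the groups overlap.

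Antigen presentation genes fell as whole sets. All 17 MHC class I presentation genes were called lower (median -1.59), with a summed level of 2256, 2520.1 and 2483 CPM in KD RI, against 6512, 7392 and 7376 CPM in WT RI. The classical heavy chain H2-K1, which shows peptides to CD8 T cells, stood at 475, 510.1 and 537 CPM in KD RI, against 1505, 1754 and 1823 CPM in WT RI (log2 fold change -1.74 ± 0.19, adjusted p = 5.44e-05). Its light chain B2m stood at 455, 493 and 468 CPM in KD RI, against 1317, 1511 and 1455 CPM in WT RI (log2 fold change -1.60 ± 0.17, adjusted p = 4.33e-05). Both were among the 6 most abundant genes that changed over 2-fold, with H2-D1 (log2 fold change -1.29 ± 0.17, adjusted p = 2.03e-04). Genes that make and load the peptides fell too. The peptide transporter Tap1 stood at 30.4, 35.1 and 37.1 CPM in KD RI, against 143, 157 and 175 CPM in WT RI (log2 fold change -2.21 ± 0.13, adjusted p = 6.22e-07), and the immunoproteasome subunit Psmb9 at 9.42, 9.41 and 11.1 CPM in KD RI, against 60.6, 64.3 and 68.7 CPM in WT RI (log2 fold change -2.69 ± 0.13, adjusted p = 1.26e-07). Nlrc5, the transactivator of MHC class I genes, stood at 46.3, 57.4 and 64.8 CPM in KD RI, against 156, 166 and 185 CPM in WT RI (log2 fold change -1.59 ± 0.15, adjusted p = 2.31e-05). H2-Q7, a non-classical heavy chain, stood at 3.99, 5.09 and 4.31 CPM in KD RI, against 91.6, 134 and 116 CPM in WT RI (log2 fold change -4.67 ± 0.24, adjusted p = 2.31e-07); the H2 genes share sequence, and how reads common to several of them were counted is not given.

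MHC class II genes, which present peptides to CD4 T cells, were called lower in 8 of 8 cases with a median of -4.44. The invariant chain Cd74 stood at 6.92, 2.24 and 4.83 CPM in KD RI, against 192, 217 and 206 CPM in WT RI (log2 fold change -5.46 ± 0.96, adjusted p = 0.00357), and the alpha chain H2-Aa at 2.99, 1.82 and 2.28 CPM in KD RI, against 75.4, 87.9 and 73.9 CPM in WT RI (log2 fold change -5.06 ± 0.87, adjusted p = 0.00287). Their transactivator Ciita was low in both groups, at 0.499, 0.208 and 0.156 CPM in KD RI, against 5.65, 6.28 and 3.38 CPM in WT RI (log2 fold change -4.14 ± 0.73, adjusted p = 0.00174). Genes of cytosolic nucleic acid sensing were called lower in 5 of 9 cases (Tmem173, Ddx58, Ifih1, Dhx58 and Zbp1) and higher in 0. Tbk1, Irf3, Mavs and Aim2 were not called. Whether these falls came before or after those of the interferon-induced genes was not tested. By the DESeq2 test, with the 6 RI libraries alone, or without KD ICI 1 or KD ICI 3, 1 was called higher and 5 lower. Zbp1, a sensor of Z-form nucleic acid, stood at 1.22, 2.495 and 1.402 CPM in KD RI, against 21.9, 21.99 and 21.6 CPM in WT RI (log2 fold change -3.67 ± 0.47, adjusted p = 2.16e-04).

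Markers of the cells that answer these signals were low in KD RI. Of 18 T cell genes 17 were called lower (median -4.45), and they summed to 3.82, 4.73 and 6.23 CPM in KD RI, against 65.2, 71.4 and 50.8 CPM in WT RI. Cd8a, the coreceptor of cytotoxic T cells, stood at 0.111, 0.208 and 0.312 CPM in KD RI, against 10.4, 11.98 and 5.47 CPM in WT RI (log2 fold change -5.42 ± 0.44, adjusted p = 6.77e-06). The T cell receptor subunit Cd3e was at 0, 0.0520 and 0.156 CPM in KD RI, against 3.27, 3.63 and 2.57 CPM in WT RI (log2 fold change -5.37 ± 0.65, adjusted p = 1.13e-04). At this depth 1 count is about 0.05 CPM, so the KD RI levels of both rest on few reads. In bulk tumours fewer cells of a type and less RNA per cell cannot be told apart. Tcf7 was the 1 of the 18 not called, and without the SG793 libraries 16 were called lower, Cd4 being lost (adjusted p = 0.109). Cytotoxic lymphocyte genes were called lower in 12 of 14 cases (median -3.97), at sums of 15.01, 24.8 and 16.8 CPM in KD RI, against 216, 234 and 123 CPM in WT RI. The 2 not called were Ncr1 and Eomes. Of the 14 genes 1 lay above 0 (log2 fold change 0.58). With the 6 RI libraries alone or without KD ICI 3, 1 gene was called higher. Gzmb, the effector protease granzyme B, stood at 1.44, 3.95 and 1.71 CPM in KD RI, against 58.7, 71.5 and 36.7 CPM in WT RI (log2 fold change -4.55 ± 0.39, adjusted p = 1.43e-05). Without the SG793 libraries 11 of these genes were called lower, with Gzma (adjusted p = 0.0778) and Fasl (0.0510) lost.

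Checkpoint receptors and ligands, the class of proteins that checkpoint inhibitors act on, were called lower in 12 of 15 cases and higher in 0 (median -2.04). Cd274, which encodes PD-L1, stood at 6.09, 7.59 and 6.698 CPM in KD RI, against 47.7, 56.3 and 58.8 CPM in WT RI (log2 fold change -3.00 ± 0.15, adjusted p = 2.31e-07). The inhibitory T cell receptor Ctla4 stood at 0.111, 0.260 and 0.0519 CPM in KD RI, against 2.604, 4.93 and 2.52 CPM in WT RI (log2 fold change -4.51 ± 0.53, adjusted p = 9.85e-05), and its ligand Cd86 at 0.831, 1.14 and 0.571 CPM in KD RI, against 10.2, 10.5 and 7.95 CPM in WT RI (log2 fold change -3.48 ± 0.43, adjusted p = 1.37e-04). The 3 not called were Btla, Pvr and Nectin2. Without the SG793 libraries 10 were called lower, with Tigit (adjusted p = 0.0549) and Lgals9 (0.119) lost. Among regulatory T cell genes 1 of 5 tested was called lower (Il2ra), and Foxp3 was not called. B and plasma cell genes were called lower in 2 of 7 cases (Cd22 and Ighm), of which 1 remained without KD RI 3 or without the SG793 libraries.

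Macrophage genes were called lower in 14 of 17 cases and higher in 0 (median -1.38), yet their summed level overlapped, at 3114, 2895 and 3072 CPM in KD RI, against 2989, 3349 and 2429 CPM in WT RI. Spp1, osteopontin, made up most of that sum and leaned the other way, at 2667, 2325 and 2570.2 CPM in KD RI, against 1838, 2012 and 1219 CPM in WT RI (adjusted p = 0.138). The complement subunit C1qb stood at 38.7, 44.3 and 41.3 CPM in KD RI, against 146, 165 and 152 CPM in WT RI (log2 fold change -1.90 ± 0.19, adjusted p = 3.24e-05). Arg1, the arginine-consuming arginase 1, stood at 28.1, 15.5 and 22.7 CPM in KD RI, against 88.9, 118 and 136 CPM in WT RI (log2 fold change -2.37 ± 0.26, adjusted p = 8.17e-05), and the surface marker Adgre1, F4/80, at 7.53, 8.27 and 11.3 CPM in KD RI, against 50.9, 53.1 and 31.8 CPM in WT RI (log2 fold change -2.33 ± 0.53, adjusted p = 0.00998). Without the SG793 libraries 11 macrophage genes were called lower, with Cd68 (adjusted p = 0.281), Apoe (0.122) and Nos2 (0.125) lost. Factors that draw or feed monocytes were called lower in 8 of 10 cases, Ccl2 and Ccl12 being the 2 not called, and in 6 without the SG793 libraries, where Ccl7 (adjusted p = 0.0892) and Ccl8 (0.0724) were lost. Csf1, the macrophage growth factor, stood at 84.98, 68.98 and 71.97 CPM in KD RI, against 207, 208 and 286 CPM in WT RI (log2 fold change -1.63 ± 0.24, adjusted p = 5.66e-04).

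Dendritic cell genes split. Irf8, Ccr7 and Itgax were called lower, the last of them not without the SG793 libraries (adjusted p = 0.0603), and Flt3 was called higher. Flt3, a growth factor receptor of dendritic and haematopoietic progenitors, stood at 9.09, 33.4 and 20.5 CPM in KD RI, against 0.662, 1.09 and 1.67 CPM in WT RI (log2 fold change 4.20 ± 0.54, adjusted p = 2.52e-04). Of 14 neutrophil genes tested 1 was called higher (Mmp9) and 1 lower (Trem1), 7.14% each. Both shares lay under those of all genes tested. Mmp9 was lost without any 1 of the 6 RI libraries and without KD ICI 1 or WT ICI 3 (adjusted p from 0.0531 to 0.109). Trem1 was lost without KD RI 1 or 3 or WT RI 3 (adjusted p from 0.0758 to 0.0889), and without the SG793 libraries 4 were called higher and 0 lower. KD RI 2 had the highest neutrophil sum, 542 CPM, with 254 and 250.3 CPM in KD RI 1 and 3, against 212 to 242 CPM in WT RI. Of 12 neutrophil-attracting chemokine and interleukin 1 genes, Il1a, Il1b and Il1rn were called lower, Il1b not without the SG793 libraries (adjusted p = 0.127). The interleukin 1 receptor antagonist Il1rn stood at 3.88, 3.69 and 3.89 CPM in KD RI, against 30.7, 36.05 and 20.9 CPM in WT RI (log2 fold change -2.93 ± 0.38, adjusted p = 2.30e-04).

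**Figure D2:**
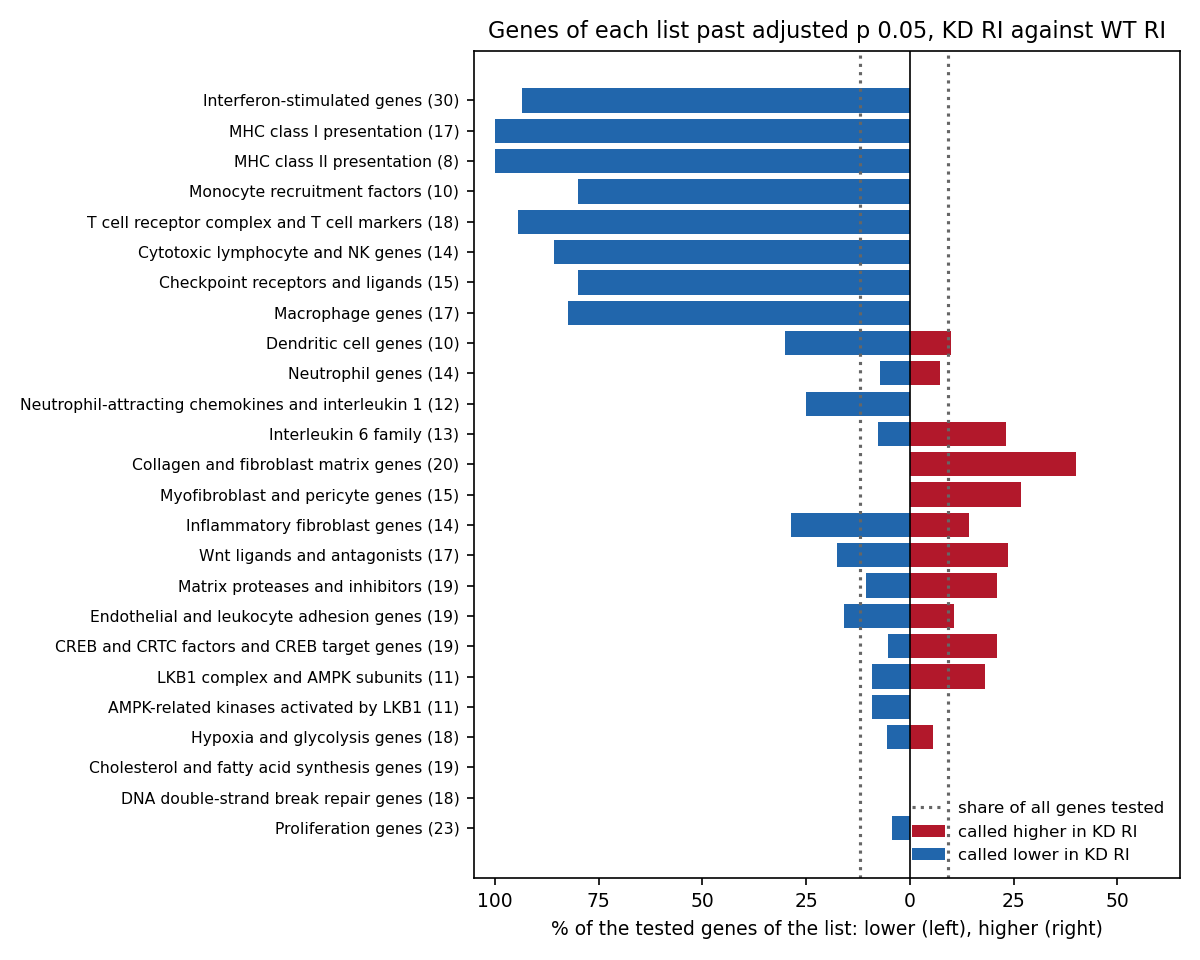
Share of the tested genes of each list (number tested in brackets) called higher (red, right) or lower (blue, left) in KD RI against WT RI, in percent. Dotted lines mark the share of all genes tested, 9.18% higher and 12.1% lower; MHC class I and II reach 100% lower, and repair and lipid synthesis genes have no bar.

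Most of the largest rises lay outside the immune lists and joined genes of unlike function. Gap43, a growth cone protein of neurons (chr16:42248442-42340651, GRCm38), stood at 97.8, 201 and 154 CPM in KD RI, against 1.94, 2.54 and 1.05 CPM in WT RI (log2 fold change 6.36 ± 0.84, adjusted p = 6.44e-04). Hgf, the ligand of the receptor MET, stood at 24.2, 43.4 and 34.3 CPM in KD RI, against 1.94, 1.09 and 0.571 CPM in WT RI (log2 fold change 4.80 ± 0.51, adjusted p = 6.86e-05). For both genes the lowest KD RI library was over 10 times the highest WT RI library. Nlrp4c, a germline-expressed NLR gene, stood at 9.92, 16.1 and 15.9 CPM in KD RI, against 0, 0.415 and 0 CPM in WT RI (log2 fold change 6.69 ± 1.05, adjusted p = 0.00107). Gad1, which makes the transmitter GABA, and Crhbp, a binding protein of corticotropin-releasing hormone, rose by log2 fold changes of 5.71 and 5.03. Both were highest in KD RI 2, at 16.2 and 14.9 CPM. Osbp2, an oxysterol-binding protein, stood at 135, 365 and 177 CPM in KD RI, against 17.8, 6.02 and 0.762 CPM in WT RI (log2 fold change 4.77 ± 1.20, adjusted p = 0.0213). Its call was lost without KD RI 2 or WT RI 2 (adjusted p from 0.0586 to 0.0834) and without the SG793 libraries (adjusted p = 0.0655).

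Squamous epithelial genes were called higher in 3 of 6 tested. Sprr1a and Sprr1b, cornified envelope proteins, and Tmprss11f, a transmembrane serine protease of squamous epithelia, carried those calls. Tmprss11f stood at 5.65, 45.2 and 12.8 CPM in KD RI, against 0.0883, 0.104 and 0.0952 CPM in WT RI (log2 fold change 7.71 ± 1.15, adjusted p = 9.04e-04), and its relative Tmprss11e at 4.82, 16.3 and 7.94 CPM in KD RI, against 0.309, 0.207 and 0 CPM in WT RI (log2 fold change 5.75 ± 0.65, adjusted p = 8.56e-05). Sprr1a stood at 10.2, 64.8 and 13.6 CPM in KD RI, against 0.927, 1.71 and 0.904 CPM in WT RI (log2 fold change 4.65 ± 0.86, adjusted p = 0.00382). For all 3 genes KD RI 2 was the highest library. Keratin 18 (Krt18) and Sfn were called lower, Krt18 not without the SG793 libraries (adjusted p = 0.0831). Krt16, a listed keratin with too few counts to be tested, went the other way, with 0 counts in KD RI and 24 in WT RI. With 3 counts as the floor over the KD RI group it was at least 7.56-fold lower. The defining squamous genes Krt5, Krt14 and Trp63 also had too few counts to be tested, and Nkx2-1, the lung lineage factor, had 0 CPM in all 6 libraries.

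**Figure D3:**
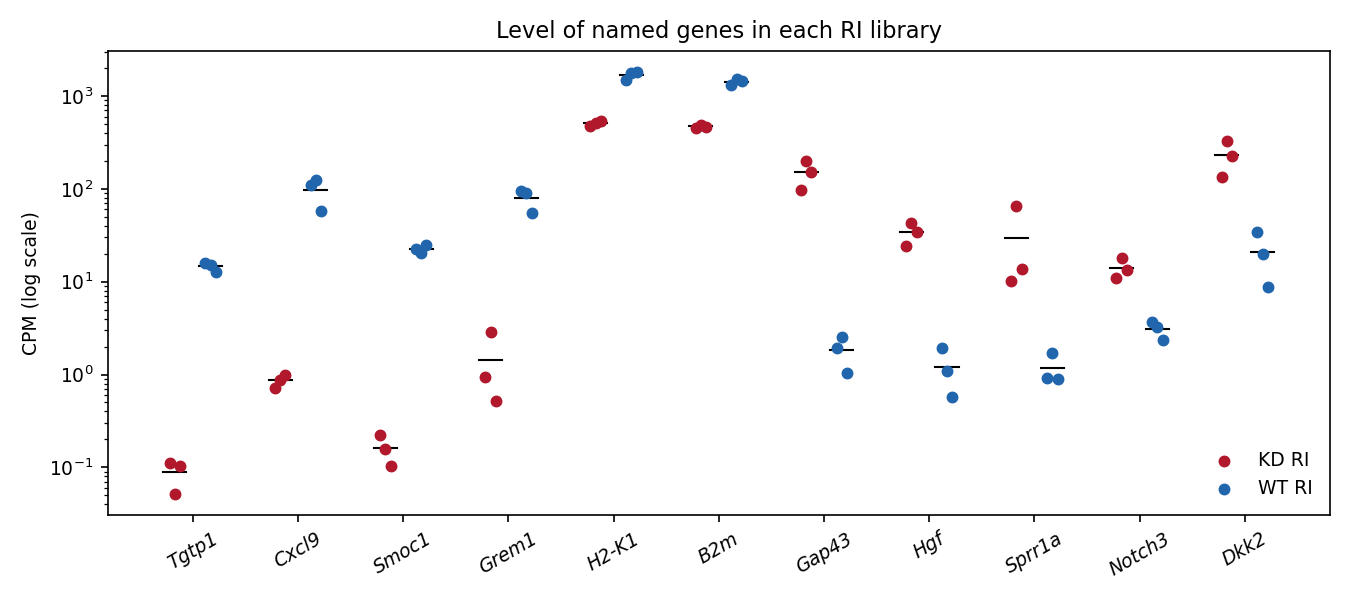
CPM (log axis) of 11 named genes in each RI library, KD RI in red left of WT RI in blue; points are libraries, bars are means (n = 3 each). Tgtp1 to B2m lie lower and Gap43 to Dkk2 higher in KD RI, with no overlap between the groups in any of the 11. The largest rises and falls were named only where the groups did not overlap, so this was set by the choice for them. Of all genes tested, 45.1% did not overlap.

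Matrix genes of fibroblasts rose in part, with 40.0% of the collagen and matrix list called higher, against 9.18% of all genes tested. Of 20 collagen and matrix genes 8 were called higher and 0 lower (median 0.45), and 5 when library 1 or 2 of either RI group was left out alone or the SG793 libraries were left out. Col12a1, a fibril-associated collagen, stood at 76.5, 112 and 45.4 CPM in KD RI, against 8.39, 8.14 and 10.8 CPM in WT RI (log2 fold change 3.10 ± 0.40, adjusted p = 2.84e-04). Tnc, tenascin C, stood at 124, 177 and 71.8 CPM in KD RI, against 23.5, 25.99 and 19.5 CPM in WT RI (log2 fold change 2.43 ± 0.34, adjusted p = 4.88e-04), and the proteoglycan Dcn at 178, 243 and 134 CPM in KD RI, against 38.7, 26.97 and 40.6 CPM in WT RI (log2 fold change 2.39 ± 0.41, adjusted p = 0.00213). The groups did not overlap in these 3, as in 45.1% of all genes tested. Col1a1 was called higher (adjusted p = 0.0284) but not without KD RI 1 or 2, WT RI 1 or 2 or KD ICI 3 (adjusted p from 0.0513 to 0.0937) or the SG793 libraries (adjusted p = 0.145). Ctsk, a collagen-cleaving cathepsin, stood at 78.2, 104 and 56.7 CPM in KD RI, against 3.796, 5.14 and 3.38 CPM in WT RI (log2 fold change 4.28 ± 0.83, adjusted p = 0.00563). Ctsl, a lysosomal protease, was the most abundant of the genes that rose over 2-fold, at 1708, 2688 and 2077 CPM in KD RI, against 1069, 1069.8 and 932 CPM in WT RI (log2 fold change 1.08 ± 0.20, adjusted p = 0.00217). Col7a1, which forms anchoring fibrils under epithelia and is not in that list, stood at 672, 607 and 639 CPM in KD RI, against 129, 123 and 129.8 CPM in WT RI (log2 fold change 2.33 ± 0.18, adjusted p = 6.17e-06).

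Inflammatory fibroblast genes were called higher in 2 of 14 cases (Has1 and Sfrp1) and lower in 4 (C3, Ly6c1, Ly6a and Ccl11), with 4 higher without WT RI 3 and 2 lower without the SG793 libraries, where C3 (adjusted p = 0.160) and Ly6c1 (0.0636) were lost. Of 19 matrix proteases and inhibitors 4 were called higher (Mmp9, Adamts1, Adamts12 and Ctsk) and 2 lower (Mmp13 and Timp3). Without KD RI 1, KD RI 2 or WT RI 1 there were 2 higher and 1 lower, and without KD RI 3 or WT RI 2 there were 3 higher and 0 lower. Without the SG793 libraries there were 4 higher and 0 lower, with Mmp9 (adjusted p = 0.0766), Adamts12 (0.0583), Mmp13 (0.347) and Timp3 (0.130) lost. Of 15 TGF-beta and epithelial-mesenchymal genes Snai1 and Twist2 were called higher and Tgfb1 and Cdh1 lower, with 1 of the rises left without WT RI 1 or WT RI 2. Neither fall kept its call without the SG793 libraries. Calls higher and lower made up 13.3% and 13.3% of this list. They made up 14.3% and 28.6% of the inflammatory fibroblast genes, and 21.1% and 10.5% of the proteases and inhibitors. All genes tested gave 9.18% and 12.1%.

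Pericyte and myofibroblast genes were called higher in 4 of 15 cases and lower in 0. Notch3, a receptor of vascular smooth muscle and pericytes, stood at 10.97, 18.2 and 13.2 CPM in KD RI, against 3.71, 3.27 and 2.33 CPM in WT RI (log2 fold change 2.18 ± 0.27, adjusted p = 1.53e-04). Kcnj8 and Abcc9, 2 subunits of 1 potassium channel of pericytes, had log2 fold changes of 1.68 and 1.28, and Lrrc15 was lost without KD RI 1 or 2, WT RI 1, 2 or 3 or WT ICI 1, 2 or 3 (adjusted p from 0.0507 to 0.196) and without the SG793 libraries (adjusted p = 0.131). Acta2 and Rgs5 were not called. Endothelial genes were called higher in 2 of 19 cases (10.5%) and lower in 3 (15.8%), near the 9.18% and 12.1% of all genes tested. The adhesion molecules Icam1 and Vcam1, which hold leukocytes on endothelium, were among the falls. Icam1 stood at 1.38, 1.51 and 1.66 CPM in KD RI, against 11.5, 13.1 and 8.996 CPM in WT RI (log2 fold change -2.87 ± 0.24, adjusted p = 8.06e-06), and Vcam1 at 9.42, 7.43 and 10.1 CPM in KD RI, against 24.9, 30.3 and 26.04 CPM in WT RI (log2 fold change -1.59 ± 0.18, adjusted p = 7.12e-05). Cdh5, the endothelial cadherin, was called higher, at 44.1, 88.8 and 60.1 CPM in KD RI, against 26.4, 38.6 and 26.1 CPM in WT RI (log2 fold change 1.08 ± 0.25, adjusted p = 0.00943). The selectin Sele, higher, was lost without KD RI 2, WT RI 1 or 2, KD ICI 2 or 3 or WT ICI 3 (adjusted p from 0.0526 to 0.255). Selp, lower, was lost without KD RI 1, 2 or 3, WT RI 3, KD ICI 2 or WT ICI 1 or 3 (adjusted p from 0.0544 to 0.242) and without the SG793 libraries (adjusted p = 0.202).

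The called Wnt ligands and antagonists moved in both directions, and the BMP antagonists Grem1 and Smoc1 were lower. Of 17 Wnt genes tested, Dkk2, Wnt2, Sfrp1 and Dkk3 were called higher and Wnt6, Wnt10a and Wnt10b lower. These were 23.5% and 17.6% of the list, against 9.18% and 12.1% of all genes tested, and 10 were not called. Dkk2, a secreted antagonist that blocks Wnt coreceptors, stood at 135, 325 and 227 CPM in KD RI, against 33.99, 19.7 and 8.81 CPM in WT RI (log2 fold change 3.46 ± 0.58, adjusted p = 0.00224). Wnt2 stood at 6.703, 14.5 and 8.204 CPM in KD RI, against 0.706, 0.519 and 1.48 CPM in WT RI (log2 fold change 3.43 ± 0.50, adjusted p = 5.06e-04), and Wnt6 at 0.166, 0.208 and 0.104 CPM in KD RI, against 12.1, 8.14 and 8.900 CPM in WT RI (log2 fold change -5.88 ± 0.34, adjusted p = 5.42e-07). Wnt2 and Wnt6 are both ligands, and the groups did not overlap in either gene, as in 45.1% of all genes tested. Wnt10a and Wnt10b had log2 fold changes of -3.97 and -3.63. The Dkk3 call was lost without KD RI 1, 2 or 3, WT RI 1, 2 or 3 or WT ICI 3 (adjusted p from 0.0536 to 0.117). Sfrp2, the gene in the title of the study, stood at 9.58, 11.5 and 3.17 CPM in KD RI, against 1.28, 1.71 and 4.28 CPM in WT RI and was not called (log2 fold change 1.74 ± 0.66, adjusted p = 0.0851); KD RI 3 lay below WT RI 3, and without WT RI 3 the adjusted p was 0.0446. Grem1, a secreted BMP antagonist, stood at 0.942, 2.86 and 0.519 CPM in KD RI, against 94.7, 89.7 and 54.6 CPM in WT RI (log2 fold change -5.78 ± 0.63, adjusted p = 1.26e-04). Smoc1, a matricellular protein that also antagonises BMP signals (chr12:81026808-81186414, GRCm38), stood at 0.222, 0.156 and 0.104 CPM in KD RI, against 22.3, 20.6 and 24.6 CPM in WT RI (log2 fold change -7.09 ± 0.29, adjusted p = 6.26e-08). Sall1, a zinc finger repressor, had a log2 fold change of -5.93.

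Of the interleukin 6 family Il11, Lif and Osmr were called higher and Clcf1 lower, of 13 tested. These were 23.1% and 7.69% of the list, against 9.18% and 12.1% of all genes tested. Il11, a fibrosis-linked cytokine, stood at 68.5, 127 and 82.8 CPM in KD RI, against 13.2, 6.74 and 1.33 CPM in WT RI (log2 fold change 3.70 ± 0.67, adjusted p = 0.00352). Lif was lost without KD RI 2 or 3 or WT RI 2 or 3 (adjusted p from 0.0597 to 0.0941) and without the SG793 libraries (adjusted p = 0.127), and Osmr without KD RI 2 or 3 or WT RI 1 or 2 (adjusted p from 0.0554 to 0.101). Clcf1 was not called without the SG793 libraries (adjusted p = 0.0658). Il6 itself was not called. In the list of CREB and CRTC genes, read because LKB1 acts on CRTC through the salt-inducible kinases, 4 of 19 were called higher and 1 lower, against 9.18% and 12.1% of all genes. The 3 phosphodiesterases Pde4b, Pde4d and Pde10a, which break down cyclic nucleotides, made up most of the rises. Pde4b stood at 87.8, 159 and 120.3 CPM in KD RI, against 18.9, 20.5 and 16.3 CPM in WT RI (log2 fold change 2.72 ± 0.21, adjusted p = 4.76e-06), and Pde4d at 15.3, 24.6 and 15.9 CPM in KD RI, against 1.94, 2.54 and 2.19 CPM in WT RI (log2 fold change 3.06 ± 0.30, adjusted p = 2.66e-05). Areg, an EGF receptor ligand, was the fourth, at 55.3, 154 and 73.1 CPM in KD RI, against 18.8, 15.6 and 24.2 CPM in WT RI (log2 fold change 2.27 ± 0.54, adjusted p = 0.0145), a call lost without WT RI 2 (adjusted p = 0.0585). The coactivator Crtc2 was called lower (log2 fold change -0.48 ± 0.09, adjusted p = 0.00276), and Nr4a1, Nr4a2, Nr4a3, Crem and Ptgs2 were not called.

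The Areg promoter is shown because it holds TGACGTCA, the full cAMP response element (capitals; chr5:91139349-91139598, plus strand, GRCm38.p6, RefSeq, 5′ to 3′).
Areg: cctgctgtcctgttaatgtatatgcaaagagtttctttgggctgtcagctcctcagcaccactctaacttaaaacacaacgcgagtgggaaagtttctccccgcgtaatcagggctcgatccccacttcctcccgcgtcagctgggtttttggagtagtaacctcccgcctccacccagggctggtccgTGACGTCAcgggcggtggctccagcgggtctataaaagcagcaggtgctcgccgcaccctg
Of the 15 list genes with a RefSeq promoter 2 held TGACGTCA (13.3%), and of all tested genes with one 2.95%. It was in 2.77% of the promoters of genes called higher and in 1.98% of those called lower. The letters ACGTG, the hypoxia response core, were in 24.2% of all promoters of tested genes and 21.8% of those of genes called higher.

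Of the LKB1 and AMPK complexes 3 of 11 genes tested were called, 2 higher and 1 lower, beside 9.18% and 12.1% of all genes. Cab39, which encodes MO25, and the catalytic subunit Prkaa1 were called higher and the subunit Prkab2 lower, each by less than 0.5 on the log2 scale. Cab39 stood at 144, 179 and 167 CPM in KD RI, against 127, 129 and 125 CPM in WT RI (log2 fold change 0.36 ± 0.09, adjusted p = 0.0159). The call was lost without KD RI 2 or 3 or WT RI 1, 2 or 3 (adjusted p from 0.0505 to 0.0727). Prkaa1 was lost without KD RI 2 or 3 or WT RI 2 or 3 (adjusted p from 0.0678 to 0.0835), and Prkab2 without KD RI 2 or 3 (adjusted p from 0.0568 to 0.0767) and without the SG793 libraries (adjusted p = 0.0506). Of 11 AMPK-related kinases Nuak2 alone was called. Nuak2 stood at 1.94, 1.61 and 1.97 CPM in KD RI, against 8.61, 8.04 and 12.2 CPM in WT RI (log2 fold change -2.38 ± 0.33, adjusted p = 2.82e-04). The salt-inducible kinases Sik1, Sik2 and Sik3 were not called.

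Repair, lipid synthesis and proliferation genes were called in smaller shares than all genes (9.18% higher and 12.1% lower) with all 12 libraries. In DNA double-strand break repair 0 of 18 were called (median -0.01), with edgeR and all 12 libraries; DESeq2 called 1 higher and 1 lower, and without KD ICI 3 there were 3 higher and 1 lower, and without the SG793 libraries 1 and 1. In cholesterol and fatty acid synthesis 0 of 19 were called (median 0.01), against 2 lower by DESeq2 or without KD RI 1. E2f1 was the only proliferation gene of 23 called (log2 fold change -0.77 ± 0.15, adjusted p = 0.00289), and Mki67 stood at 359.5, 304 and 405 CPM in KD RI, against 418, 437 and 366 CPM in WT RI (adjusted p = 0.703). Without the SG793 libraries 7 proliferation and 5 lipid genes were called lower. Of 17 p53 targets Phlda3 was called higher and Pmaip1 and Fas lower, and Cdkn1a and Mdm2 were not called. Phlda3 was lost without KD RI 1 or 3 or WT RI 1 or 2 (adjusted p from 0.0705 to 0.121), and Fas without KD RI 1 or 3 or WT RI 3 (adjusted p from 0.0626 to 0.0723). The p53 list gave 2 higher and 5 lower without KD ICI 3, 1 higher and 4 lower by DESeq2, and 2 higher and 0 lower without the SG793 libraries, where Phlda3 (adjusted p = 0.321), Fas (0.230) and Pmaip1 (0.129) were lost. Of 18 hypoxia and glycolysis genes Vegfa was called higher and Hk2 lower, Vegfa not without KD RI 1 or 2 or WT RI 1 or 3 (adjusted p from 0.0761 to 0.119) or the SG793 libraries (adjusted p = 0.111), and 4 were called higher and 1 lower without those libraries. Fosl2 of 14 immediate early genes was called higher, not without KD RI 2 or WT RI 3, and Egr2, Egr3 and Zfp36 were called lower, Egr2 not without the SG793 libraries (adjusted p = 0.0710). The mitochondrially encoded genes mt-Nd1, mt-Nd5 and mt-Nd6 of 13 were called lower, with mt-Nd5 at 217, 273 and 426 CPM in KD RI, against 901, 859 and 908 CPM in WT RI (log2 fold change -1.54 ± 0.28, adjusted p = 0.00195).

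The differences also lay in blocks along the chromosomes. Over the 11035 genes of at least 5 CPM on average, runs of 25 neighbouring genes with a median log2 fold change beyond 0.3 in either direction were joined, and 14 joined blocks held 60 genes or more, 10 lower and 4 higher in KD RI. They were chosen on the RI values, which are therefore a description. On chromosome 6, 133 genes at chr6:48524554-86334240 had a median of -0.59, 117 of them below 0. Measured against the WT RI mean, the median of this block was -0.62, -0.57 and -0.62 in KD RI, against 0.04, 0.01 and -0.07 in WT RI. The libraries of a group hardly differed, KD RI 2 included. Chromosome 16 was lower over nearly its whole length: the median of its 337 genes was -0.32, and 87.8% lay below 0, against 45.3% of all. Chromosome 5 changed direction along its length. Its 200 genes at chr5:23503264-77408041 had a median of -0.34, and the 355 at chr5:95861714-139826885 a median of 0.36. The start of chromosome 19 (chr19:3260924-5845478, 77 genes) had a median of -0.47, and chrX:62775585-99471273 (79 genes) of 0.55.

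The KD ICI and WT ICI libraries are labelled as other samples than the RI groups. KD ICI 3 nevertheless shares the name SG793 with KD RI 1 and KD RI 3. The ICI libraries gave the same sign of the median in 14 of the 14 blocks. The chromosome 6 block had a median of -0.43 under ICI, at -0.42, -0.48 and -0.46 in KD ICI, against 0.00, -0.06 and 0.06 in WT ICI. The pair of chromosome 5 blocks had -0.29 and 0.29, chromosome 16 as a whole -0.39, the chromosome 19 block -0.46 and the X block 0.45. The smallest ICI median was that of the block at chr6:125131909-142322981, at -0.09 under ICI and -0.26 under RI. These 14 blocks held 16.2% of the genes of at least 5 CPM, counting genes of either sign. Of the 2486 of those genes that were called, 689 (27.7%) lay in a block of their own direction, but of the 280 called over 4-fold only 27 (9.64%) did. Both shares leave out genes of the opposite sign, unlike the 16.2%. The same RI values set the blocks and the calls. DNA copy number was not measured in the data used here.

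**Figure D4:**
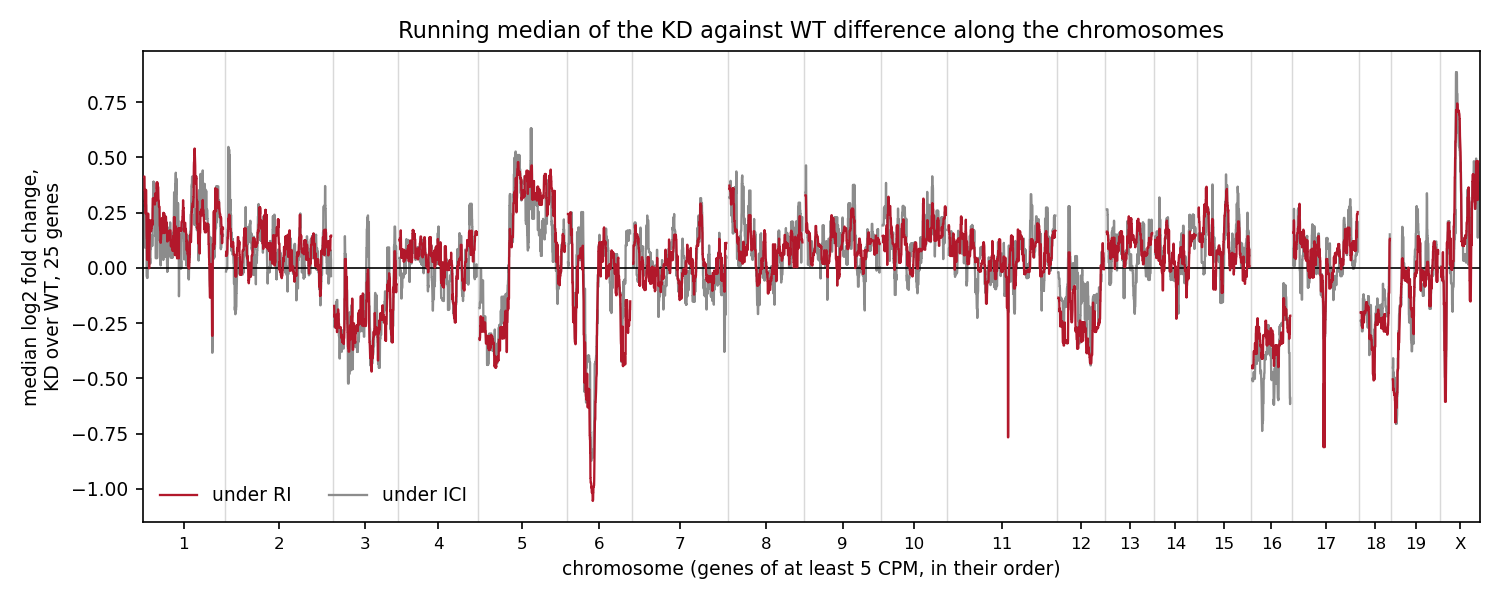
Running median over 25 neighbouring genes of the log2 fold change KD over WT, under RI (red) and under ICI (grey), against gene order on each chromosome (genes of at least 5 CPM). The red and grey lines dip together on chromosomes 3, 6, 16 and the start of 19, and pass from below to above 0 on chromosome 5.

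The same genotype contrast was available under ICI, on libraries labelled as other samples than the RI ones. KD ICI 1 and KD ICI 2 may be 1 source, and KD ICI 3 shares the name SG793 with KD RI 1 and KD RI 3. Whether the ICI and RI libraries are independent is therefore not known. Of the 3528 genes called under RI 2408 were called in the same direction under ICI (68.3% of the RI calls and 46.8% of the 5146 ICI calls, which are 31% of the genes tested), and 16 in the opposite one. The test of the difference between the treatments passed for 61 genes, 0.367% of those tested, 10 above and 51 below 0, where below 0 means a more negative KD against WT difference under RI; 2238 had an unadjusted p under 0.05. Interferon-induced genes gave 7 of 30 and MHC class I genes 4 of 17 of these. Gbp7 had a log2 fold change of -4.53 under RI and -2.43 under ICI (difference -2.10 ± 0.26, adjusted p = 0.00568), and Igtp had -3.51 and -1.74 (difference -1.77 ± 0.19, adjusted p = 0.00568). Tap1 had -2.21 and -0.76 (difference -1.45 ± 0.18, adjusted p = 0.00568), H2-Q7 -4.67 and -2.19 (difference -2.48 ± 0.30, adjusted p = 0.00568), and Cd274 -3.00 and -1.40 (difference -1.60 ± 0.21, adjusted p = 0.00852). These 5 and Irgm1 kept the call without any 1 of the 12 libraries. Col7a1 was higher by 2.33 under RI and 0.70 under ICI (difference 1.63 ± 0.25, adjusted p = 0.0215), a call kept in 5 of the 12. The total moved with single libraries. Without KD ICI 3, whose description carries CON although its label reads ICI, it became 841 above and 1061 below 0, and without KD RI 2 it became 18 and 160. Leaving out KD RI 1 gave 1 and 8, KD RI 3 2 and 11, and each of the 6 WT libraries in turn 2 or 3 and 9 to 16. With KD ICI 1 and KD ICI 2 summed to 1 library the RI comparison called 1672 genes higher and 2169 lower, and the difference between treatments became 8 above and 52 below 0, 47 of them among the 61.

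**Figure D5:**
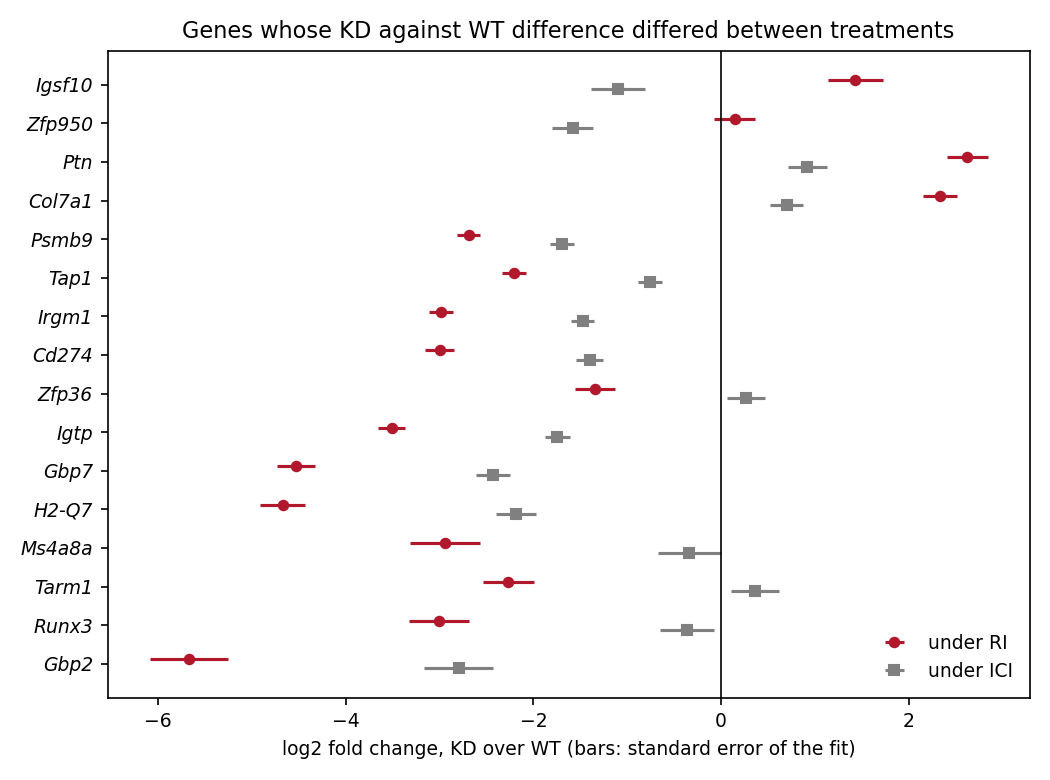
Log2 fold change KD over WT of 16 genes whose difference between treatments passed the test, under RI (red circles) and under ICI (grey squares); bars are standard errors of the fit. Interferon and MHC class I genes lie further left under RI, with Gbp2 at -5.67 and -2.80.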

How the data were processed

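RNA of whole tumours was sequenced. Per the submitters' processing notes, HISAT2 and the build GRCm38 (mm10) were used; the counting tool, its strand setting and its treatment of shared reads are not stated in what was used here. The authors deposited read counts per gene and FPKM values (scaled for gene length and library size); tests used the deposited counts, and FPKM entered no test. Samples were grouped by their labels. Genes with enough counts by edgeR's filter (minimum count 10, minimum total 15) were fitted over 12 libraries with TMM scaling and 1 mean per group (edgeR 4.0.16 in R 4.3.3, limma 3.58.1, residual degrees of freedom 8, common biological coefficient of variation 0.209), and the standard error is the fold change over the root of F. The totals per library, given with the results, set the precision of low genes. Levels and positions were summarised with Python 3.11.15, pandas 2.3.3 and matplotlib 3.10.9, and the fit was tested on simulated data.

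The genes named are Stk11 and Sfrp2, the 10 largest rises and falls without overlap and with at least 5 CPM, up to 3 rising and 3 falling members of each list by smallest p, the 6 most abundant genes changed over 2-fold, and 4 at each end of the treatment difference; 1 of the largest rises is not reported here. Members and lists were chosen with earlier results of these data known. Adgre1, Areg, Cd3e, Cd74, Col1a1, Ddx3y, Dkk3, H2-Aa, Lrrc15, Mki67, Nlrc5, Spp1 and Xist, and genes of the lists named without values, lie outside this rule and were chosen after their values were seen. Alternatives were other scalings, filters and tests (DESeq2 1.42.0, limma-voom), a replicate block, the RI libraries alone, each library left out, the libraries described as SG793 left out and, chosen after seeing the data, the libraries of a shared identifier summed (KD RI 1 with KD RI 3, and KD ICI 1 with KD ICI 2).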

Additional observations from a re-analysis of the deposited data

Results flagged for a closer look

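The KD against WT difference was not the same under RI and ICI for 16 named genes, by the test of the difference itself (edgeR quasi-likelihood, adjusted over all genes; RI minus ICI on the log2 scale). Of the interferon and MHC class I genes, the difference was -2.10 for Gbp7, -1.77 for Igtp, -1.51 for Irgm1, -2.87 for Gbp2, -2.48 for H2-Q7, -1.45 for Tap1 and -0.995 for Psmb9. Cd274, which encodes PD-L1, had -1.60. All 8 were lower in KD under RI, so the negative sign means a larger fall under RI than under ICI.

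Another 4 genes lay below 0, namely the RNA-binding protein gene Zfp36 with -1.61, the lymphocyte transcription factor gene Runx3 with -2.64, the myeloid receptor gene Tarm1 with -2.63 and Ms4a8a with -2.60. Above 0 lay Igsf10 with 2.53, the zinc finger gene Zfp950 with 1.73, the secreted growth factor gene Ptn with 1.70 and Col7a1 with 1.63.

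When each of the 12 libraries was left out, Cd274, Igtp, Irgm1, Gbp7, H2-Q7 and Tap1 passed each time. The highest adjusted p of the other 10 lay between 0.0677 for Tarm1 and 0.165 for Ms4a8a. Without the SG793 libraries 7 of the 16 did not pass, namely H2-Q7 (adjusted p = 0.108), Gbp2 (0.107), Zfp36 (0.0949), Igsf10 (0.0943), Ptn (0.0885), Ms4a8a (0.0678) and Runx3 (0.0575). With KD ICI 1 and KD ICI 2 summed Ms4a8a did not pass (0.0815).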

How the results depend on the processing

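Among alternatives to the RI comparison, 0 of the calls shared with the 3528 had the opposite direction. A fold limit of 2 left 581 higher and 1156 lower. Leaving out 1 library gave 915 to 2393 higher and 1430 to 2723 lower. Of 147 named genes 137 passed the threshold, 36 of these lost the call in at least 1 fit and 5 others gained it. Signs turned for Myh1 (2.05 by limma-voom, and from -3.88 to 8.56 with 1 library left out), Mbp (-0.048 without the SG793 libraries) and Zfp950 (-0.30 without the SG793 libraries, and from -0.034 to 0.33 with 1 library left out); the cause was not tested.

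The count of treatment differences was less stable. Those above 0, 10 in the reported fit, became 22 with no filter, 123 by DESeq2, 24 without the SG793 libraries, 2 with KD RI 1 and KD RI 3 summed, and 1 to 841 with 1 library left out. Those below 0, 51 in the reported fit, became 32 with upper quartile factors, 24 by library size alone, which moved the median difference of all genes to 0.12, 125 with no filter, 451 by DESeq2, 11 with KD RI 1 and KD RI 3 summed, and 8 to 1061 with 1 library left out. The cause was not tested.

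Deviations from the group means correlated at 0.177, -0.0588 and 0.151 between RI samples of the same number, and at -0.271 to 0.217 between those of unlike number. With 3 samples per group these values cannot decide whether the numbers pair the samples. With the replicate block 3376 genes were called under RI, 3227 of them among the 3528, and the treatment differences became 3 above and 18 below 0. Genes with a few counts per library, such as Cd3e in KD RI, are limited by depth.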

Other observations

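Some gene families were looked at after their values were seen, so their counts are descriptions, and some of their members are also in the lists above (Gzma, Gzmb, Gzmc, Gzmk, Irgm1, Igtp and Iigp1). The 9 granzymes tested were called lower in KD RI (median log2 fold change -4.55), as were 7 of 7 immunity-related GTPases (-4.68) and 5 of 5 tested apolipoprotein L genes (-2.97), some of which are near copies whose reads may be split; Apol8 and Apol10a had too few counts to be tested. The inflammatory caspases Casp1, Casp4 and Casp12, neighbours on chromosome 9, were called higher (median 2.96). Casp4, which senses cytosolic lipopolysaccharide, stood at 58.1, 131 and 65.9 CPM in KD RI, against 10.1, 12.1 and 10.6 CPM in WT RI (log2 fold change 2.96 ± 0.39, adjusted p = 3.67e-04).

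Another 3 genes lie outside the lists. Fgf7 and Enpp2 were chosen after their values were seen, and Ptn was also named by the rule for the treatment difference. Fgf7, the keratinocyte growth factor, stood at 57.9, 49.96 and 58.9 CPM in KD RI, against 21.3, 13.9 and 5.85 CPM in WT RI (log2 fold change 2.02 ± 0.55, adjusted p = 0.0247). Enpp2, a secreted enzyme that makes lysophosphatidic acid, stood at 67.1, 33.1 and 36.8 CPM in KD RI, against 5.297, 3.37 and 2.48 CPM in WT RI (log2 fold change 3.61 ± 0.64, adjusted p = 0.00275). Ptn, the heparin-binding pleiotrophin, stood at 58.6, 40.8 and 40.5 CPM in KD RI, against 7.77, 8.77 and 6.14 CPM in WT RI (log2 fold change 2.62 ± 0.22, adjusted p = 8.83e-06).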
